A study of Mus musculus with 21 samples.

Results

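The mitochondrial ribosomal protein genes were followed through sorted cells of mouse medulloblastoma, a tumour of the cerebellum. They were taken as every probe set whose array annotation names a single gene symbol that starts with Mrpl or Mrps and a digit. The rule gave 156 of 45101 probe sets and 76 of 18193 genes. Of these, 49 genes encode proteins of the large subunit of the mitochondrial ribosome and 26 encode proteins of the small subunit. Mrps18a and Mrps30 are counted with the large subunit, where their proteins sit despite the names. The remaining gene, Mrps36, carries a ribosomal name, but its product is now known as a subunit of the 2-oxoglutarate dehydrogenase complex.

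The mitochondrial ribosome translates the few messenger RNAs made from mitochondrial DNA, which encode core subunits of the respiratory chain and of ATP synthase. All of its proteins are encoded in the nucleus, made in the cytosol and imported, while its ribosomal RNAs are transcribed inside the organelle. The small subunit holds the decoding site and the large subunit the peptidyl transferase centre and the exit tunnel, and both have gained proteins that bacterial ribosomes lack.

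RNA had been hybridised to 21 Affymetrix arrays in 4 groups: CD15 positive cells (n = 4) and CD15 negative cells (n = 5) of tumours titled Math1-GFP, and CD15 positive cells (n = 6) and CD15 negative cells (n = 6) of tumours titled conventional Patched. All groups are primary medulloblastoma cells of Patched mice. Patched (Ptch1) restrains Hedgehog signalling, and CD15 is a surface carbohydrate found on progenitor cells. Math1, also called Atoh1, drives the fate of granule neuron precursors and stands here beside the name of the reporter GFP. The labels give no age, strain, allele of Ptch1 or design of the Math1-GFP allele, and the descriptions of all 9 Math1-GFP arrays call the tumours conventional; the titles were followed. Nothing in the labels ties the samples to separate animals, so the p-values reflect only the spread among these samples, and that spread may be technical. Transcripts of Neurod1 and Cntn2, which mark the granule neuron lineage, averaged 11.43 and 9.07 log2 units in conventional CD15 positive cells. Median signals averaged 28.5, 28.4, 24.9 and 26.3 in the order of groups above. Correlations between whole arrays lay between 0.907 and 0.985.

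The promoters of these genes are shown first, as background on the family. Their part in the differences that follow was not tested. NRF1, GABP (an ETS family factor) and YY1 are known regulators of nuclear genes for mitochondrial proteins. Of the 76 genes, 67 had a promoter in the RefSeq table (GRCm38.p6), with 73 windows of 300 bases, 250 before and 50 after the start. Both strands were searched. The letters GCATGCGC, the core of the NRF1 motif, stood in 8 of 73 windows (11%), against 2.71% of all 32851 windows. CCGGAAG, an ETS core that GABP binds, stood in 25 windows (34.2%), against 8.86% of all windows. AAGATGGC, the YY1 core, stood in 12 windows (16.4%), against 2.75% of all windows. At least 1 of these stood in 50.7% of member windows, against 13.3% of all windows. CACGTG, an E-box that MYC family proteins bind, was at 9.59%, against 7.15%. These are matches of letters and not sites shown to be bound. The 250 bases before the start are given for 6 genes. Mrps11 (chr7:78782881-78783130, plus strand) and Mrpl52 (chr14:54426659-54426908, plus) were called between CD15 fractions and hold a match before the start. Mrpl12 (chr11:120484387-120484636, plus) was called too and holds none. Mrpl42 and Mrpl23 were also called and are not printed. Mrpl42 is among the genes with the YY1 letters in a window, and Mrpl23 is not among the genes with a match. Mrpl17 (chr7:105811088-105811337, minus), Mrpl22 (chr11:58171414-58171663, plus) and Mrpl32 (chr13:14613038-14613287, minus) are the 3 genes, among those with a single window, in which the bases before the start match more than 1 of the NRF1, ETS and YY1 letters. Capitals mark the matches on either strand. GCGCATGC is the NRF1 core, CTTCCGG the ETS core and GCCATCTT the YY1 core on the opposite strand, and the 10 capitals of Mrpl32 are overlapping NRF1 matches on both strands.
Mrps11: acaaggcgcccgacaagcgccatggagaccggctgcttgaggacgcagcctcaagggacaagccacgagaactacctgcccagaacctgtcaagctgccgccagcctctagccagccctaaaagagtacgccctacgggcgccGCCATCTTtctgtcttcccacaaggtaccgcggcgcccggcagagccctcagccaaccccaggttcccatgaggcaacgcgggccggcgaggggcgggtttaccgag
Mrpl52: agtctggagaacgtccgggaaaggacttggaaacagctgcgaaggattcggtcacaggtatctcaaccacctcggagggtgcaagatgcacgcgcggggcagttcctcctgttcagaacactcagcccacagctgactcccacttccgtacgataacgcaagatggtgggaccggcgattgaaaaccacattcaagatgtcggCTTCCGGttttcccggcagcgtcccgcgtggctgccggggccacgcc
Mrpl12: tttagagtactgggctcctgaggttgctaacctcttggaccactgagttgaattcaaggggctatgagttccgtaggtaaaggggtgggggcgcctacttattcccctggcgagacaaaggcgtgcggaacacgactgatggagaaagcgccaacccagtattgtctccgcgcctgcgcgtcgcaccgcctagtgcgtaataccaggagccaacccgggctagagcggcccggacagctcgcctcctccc
Mrpl17: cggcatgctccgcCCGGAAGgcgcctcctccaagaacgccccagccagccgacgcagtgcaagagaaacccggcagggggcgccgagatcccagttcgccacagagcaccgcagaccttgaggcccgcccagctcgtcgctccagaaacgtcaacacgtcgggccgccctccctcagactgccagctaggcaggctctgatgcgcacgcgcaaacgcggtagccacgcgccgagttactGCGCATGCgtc
Mrpl22: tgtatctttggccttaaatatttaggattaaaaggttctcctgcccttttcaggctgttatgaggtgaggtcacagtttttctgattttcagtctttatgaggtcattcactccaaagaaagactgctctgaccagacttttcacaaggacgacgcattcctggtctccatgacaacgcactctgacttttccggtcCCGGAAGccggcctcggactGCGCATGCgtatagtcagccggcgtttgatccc
Mrpl32: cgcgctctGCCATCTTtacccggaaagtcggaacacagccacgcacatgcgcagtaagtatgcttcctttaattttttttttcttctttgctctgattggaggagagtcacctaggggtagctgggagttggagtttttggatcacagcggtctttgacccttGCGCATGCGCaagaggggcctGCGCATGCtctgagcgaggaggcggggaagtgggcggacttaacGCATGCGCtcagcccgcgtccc

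In the comparisons, values are log2(signal + 32) of the brightest probe set of each gene. A gene is called where the adjusted p of the limma fit over 12367 genes is under 0.05. Each of the 76 genes had a probe set past the filter on dim signals, and 143 of the 156 probe sets passed it; the 13 others had mean signals between 2.64 and 12.9. The probe sets used had mean signals between 132.8 and 1880, and 51 of the 76 genes lay in the brightest of 4 equal bins of all genes tested. Levels of different genes are not compared, since each probe set has its own brightness.

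The mean over the 76 genes placed the groups apart. It was 8.93 ± 0.11 in Math1-GFP CD15 positive cells and 8.83 ± 0.09 in Math1-GFP CD15 negative cells (SD, n = 4 and 5). In conventional tumours it was 9.57 ± 0.07 in CD15 positive cells and 9.33 ± 0.10 in CD15 negative cells (SD, n = 6 each). The lowest conventional CD15 positive array, at 9.46, stood above the highest CD15 negative one, at 9.43. The Math1-GFP fractions overlapped, with ranges of 8.78 to 9.02 in CD15 positive and 8.70 to 8.95 in CD15 negative cells, and every Math1-GFP array lay below every conventional array. Both ribosomal subunits showed this order of groups. Each array measures a mixture, so fewer cells of a type and less RNA per cell cannot be told apart.

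**Figure D1:**
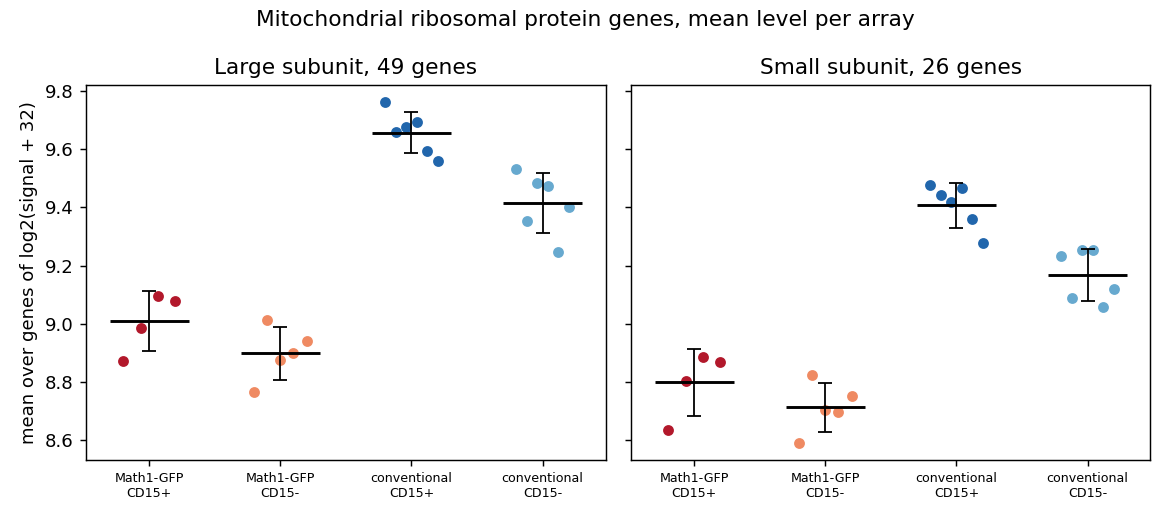
Mean of log2(signal + 32) over the 49 large subunit genes (left) and the 26 small subunit genes (right) on each array. Points are arrays, horizontal lines group means and bars SD. In both panels the conventional arrays lie above the Math1-GFP arrays, and the conventional CD15 positive arrays average 9.66 and 9.41, against 9.42 and 9.17 in CD15 negative arrays.

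The first comparison set CD15 positive against CD15 negative cells of conventional tumours. Of the 76 mitochondrial ribosomal protein genes, 5 were higher in the CD15 positive cells and the other 71 did not pass the test. The 5 were Mrpl42, Mrpl23, Mrpl12, Mrps11 and Mrpl52, with differences of 1.29-fold to 1.45-fold. Over all genes tested, 3.05% were called higher and 5.09% lower, while 0 members were called lower. Bright genes were called higher more often. In the brightest of the 4 bins 7.76% of all genes were called higher, and 4 of the 51 members there. The medians in that bin were 0.07 over all genes and 0.24 over the members. The estimated difference was above 0 for 75 of the 76 genes, with a median of 0.24 log2 units (1.18-fold) and a range of -0.13 to 0.54. The median of all tested genes was -0.02. At an unadjusted p under 0.05 there were 31 members, against 22.2% of all genes.

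Mrpl42 encodes a large subunit protein without a bacterial counterpart. Its level was 10.87, 11.05 and 11.16 (lowest, median and highest) in CD15 positive cells, against 10.11, 10.57 and 10.68 in CD15 negative cells. The ranges did not overlap. The log2 difference was 0.54 ± 0.13 (SE; adjusted p = 0.0107, limma).

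Mrpl23 is the counterpart of a bacterial protein at the mouth of the exit tunnel. It measured 10.20, 10.24 and 10.48 in CD15 positive cells, against 9.72, 9.94 and 10.11 in CD15 negative cells, again without overlap. The difference was 0.37 ± 0.09 (SE; adjusted p = 0.0118, limma).

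Mrpl12 is the counterpart of the bacterial stalk protein L7/L12 and is also known, from human cells, to bind the mitochondrial RNA polymerase. Its promoter above holds none of the letters searched. It measured 10.56, 10.79 and 10.99 in CD15 positive cells, against 10.17, 10.34 and 10.55 in CD15 negative cells. The ranges touched without overlapping, and the difference was 0.44 ± 0.11 (SE; adjusted p = 0.0120, limma).

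Mrps11, the counterpart of a bacterial protein of the small subunit platform, was the only called gene of that subunit. It measured 8.69, 8.93 and 9.08 in CD15 positive cells, against 8.27, 8.45 and 8.71 in CD15 negative cells. The highest CD15 negative array lay just above the lowest CD15 positive one, and the difference was 0.41 ± 0.11 (SE; adjusted p = 0.0201, limma). Without CD15 positive replicate 2 or CD15 negative replicate 5 it was not called (adjusted p up to 0.0585).

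Mrpl52, a mitochondria-specific large subunit protein, stood at the threshold. It measured 10.92, 11.21 and 11.73 in CD15 positive cells, against 10.65, 10.88 and 11.18 in CD15 negative cells, with overlap. The difference was 0.40 ± 0.12 (SE; adjusted p = 0.0497, limma). The call was lost in 18 of the 21 fits that left out 1 array (adjusted p up to 0.123).

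**Figure D2:**
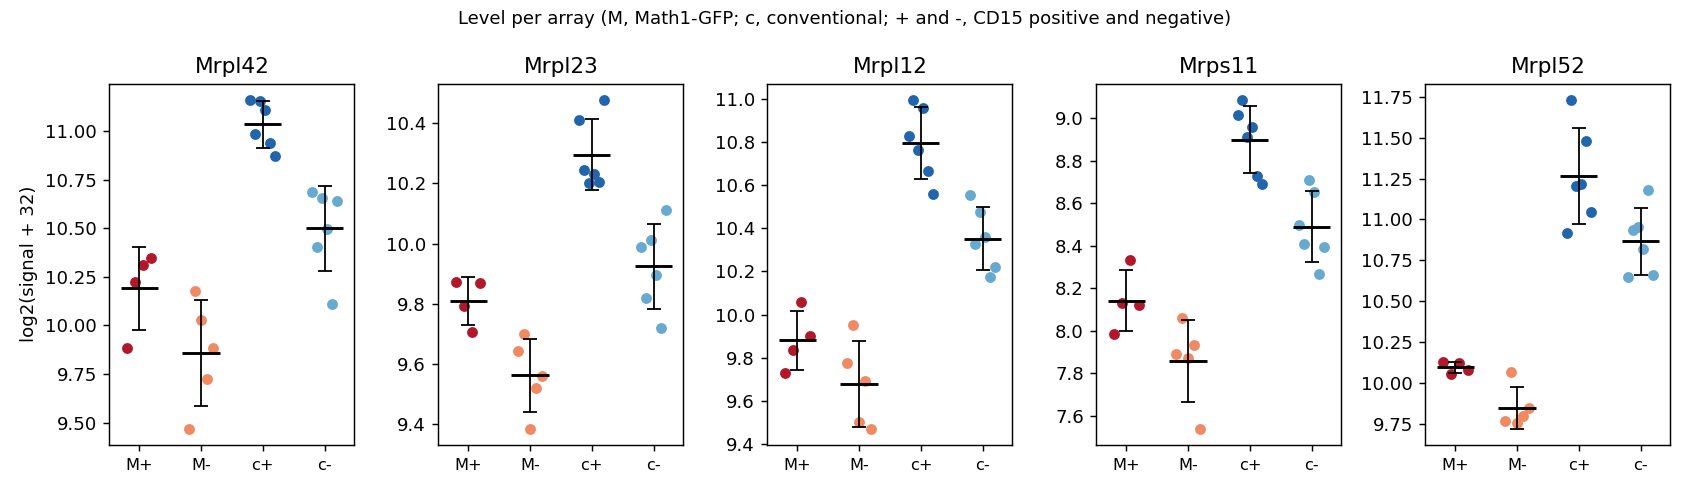
Level of the 5 genes called between CD15 fractions of conventional tumours, as log2(signal + 32), on each array. M is Math1-GFP, c conventional, + CD15 positive and - CD15 negative; points are arrays, lines means and bars SD, and each panel has its own axis. In every panel the conventional CD15 positive mean is the highest of the 4 groups, and for Mrpl42 the ranges of the conventional fractions, 10.87 to 11.16 and 10.11 to 10.68, do not meet.

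Both subunits had the same median, 0.24 in the large subunit, where 4 of 49 genes were called, and 0.24 in the small subunit, where 1 of 26 was called. The 43 genes with a bacterial counterpart had a median of 0.24 with 3 called, and the 32 mitochondria-specific genes 0.24 with 2 called. Mrps36 had a difference of 0.24 and was not called (adjusted p = 0.405). Next by p were Mrpl40 with 0.43 (adjusted p = 0.0697), Mrpl2 of the peptidyl transferase region with 0.35 (0.0712), Mrps28 with 0.34 (0.0722), Mrpl18, which binds 5S ribosomal RNA in humans, with 0.34 (0.0850), and Mrps7 of the small subunit head with 0.24 (0.0875). None of these passed in the main limma fit, which has no block. Mrpl9 alone had an estimate below 0, at -0.13 (adjusted p = 0.622).

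In 8 of the 76 genes every CD15 positive array lay above every CD15 negative array, against 1.89% of all genes. Besides Mrpl42, Mrpl23 and Mrpl12 these were Mrpl15, Mrpl27, Mrpl51, Mrpl57 and Mrps9. The arrays can also be read as pairs of the same title number, with the unnumbered arrays, here replicate 1, taken as a pair too. In 45 of the 76 genes the CD15 positive array was the higher in all 6 pairs, against 12% of all genes, and 1 gene, Mrpl9, was the lower in all 6, against 13.2% of all genes. The mean over the 76 genes differed by 0.23, 0.32, 0.18, 0.21, 0.34 and 0.16 in replicates 1 to 6. Each of the 6 differences was above 0, with 59 to 72 of the genes higher in a pair.

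With the replicate number as a block, 12 genes were called in place of 5, against 5.53% of all genes higher and 8.27% lower. The blocked fit kept all 5 and added Mrpl2, Mrpl3, Mrpl55, Mrpl58, Mrps14, Mrps28 and Mrps35. Without CD15 positive replicate 2 the count was 3 (Mrpl12, Mrpl23 and Mrpl42), and without CD15 positive replicate 6 it was 8. The 4 conventional arrays without a number or numbered 6 were set apart with earlier results of these data known. In them 0 members and 0% of all genes were called, and the members' median was 0.18. In the arrays numbered 2 to 5 the count was 5, with a median of 0.27, against 2.51% of all genes higher. Mrps35 stood there in place of Mrps11. With probe sets averaged per gene the count was also 5, but Mrpl28 and Mrps2 stood in place of Mrps11 and Mrpl52.

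Other gene groups moved between these fractions. Of 19 measured genes of the G2 and M phases, 18 were called higher in CD15 positive cells, with a median of 0.82. Their mean level ranged from 10.28 to 10.71 in CD15 positive cells and from 9.08 to 10.08 in CD15 negative cells. Of 14 neuronal differentiation genes, 11 were called lower, with a median of -1.10. Their mean level ranged from 8.54 to 9.25 in CD15 positive cells and from 9.64 to 10.44 in CD15 negative cells. The microglia and macrophage list had 0 of 10 genes called and a median of 0.83, with levels between 6.41 and 9.78 in CD15 positive cells and between 5.77 and 8.26 in CD15 negative cells. No gene was called in the lists of astrocytes (7 measured), the oligodendrocyte lineage (6), neutrophils (4), endothelial cells (3) and mural cells and fibroblasts (7), whose medians were 0.40, 0.08, -0.64, -0.14 and -0.60, and no erythroid gene was tested. The part of these in the ribosomal protein differences was not tested.

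The rest of the mitochondrial translation apparatus was measured from 6 lists. Slirp, an RNA-binding partner of Lrpprc that stabilises mitochondrial messenger RNAs, was the 1 gene called in these lists between the conventional fractions. Its log2 difference was 0.33 ± 0.09 (SE; adjusted p = 0.0279, limma). Among the other translation factors Tsfm, the exchange factor of the elongation factor Tufm, had 0.47 (adjusted p = 0.0795); the list of 12 had a median of 0.04. The 5 other proteins of or bound to this ribosome, which lack an Mrp name, had a median of 0.15, with 0.24 for Chchd1 and 0.15 for Dap3 of the small subunit, and 0 were called. Medians were 0.05 over 23 assembly and rRNA modification genes, 0.06 over 21 aminoacyl-tRNA synthetase genes, 0.08 over 11 genes of mitochondrial DNA replication and transcription and 0.10 over 8 regulators. None of these 4 lists held a call. The genes of smallest p in them were Mettl17 with -0.26 and Rbfa with 0.45, Kars with 0.34 and Yars2 with 0.42, Tfam with 0.21 and Mgme1 with 0.22, and Pprc1 with 0.27 and Nrf1 with 0.26.

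The second comparison set CD15 positive against CD15 negative cells of Math1-GFP tumours. In limma 0 of the 76 genes were called, where 0.0162% of all genes were called higher and 0.0243% lower. At an unadjusted p under 0.05 there were 6 members, against 8.68% of all genes. The estimate was above 0 for 61 of 76 genes, with a median of 0.09, and the median of all genes was 0.00. The members' median was 0.05 without CD15 positive replicate 9 or CD15 negative replicate 2 and 0.15 without CD15 positive replicate 1, and with probe sets averaged per gene it was 0.04, with 53 genes above 0. The large subunit had a median of 0.10 and the small subunit 0.07. G2 and M phase genes differed here with a median of 0.74, with 1 of 19 called. Of 14 neuronal differentiation genes 0 were called, with a median of -0.68. Of 10 microglia and macrophage genes 0 were called, with a median of 0.39. The oligodendrocyte lineage, neutrophil, endothelial and mural lists had 0 called and medians of 0.31, 0.17, 0.03 and 0.30. The astrocyte list had 0 of 7 genes called and a median of 1.11, with levels from 7.63 to 9.41 in CD15 positive cells and from 6.69 to 7.39 in CD15 negative cells. The part of these lists was not tested.

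The smallest p belonged to Mrpl57, a small mitochondria-specific protein of the large subunit. It measured 10.08, 9.57, 9.79 and 9.59 in CD15 positive cells, against 9.76, 9.49, 8.79, 9.13 and 9.28 in CD15 negative cells. The highest CD15 negative array lay within the CD15 positive range, and the difference was 0.47 ± 0.16 (SE; adjusted p = 0.288, limma). Its dimmer second probe set gave 0.00.

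Mrps6, the counterpart of a bacterial small subunit protein, measured 9.04, 8.96, 9.00 and 8.58 in CD15 positive cells, against 7.78, 8.60, 8.66, 8.52 and 8.43 in CD15 negative cells. One CD15 positive array lay inside the CD15 negative range, and the difference was 0.50 ± 0.18 (SE; adjusted p = 0.349, limma). Mrpl23 was the only member whose fractions did not overlap, against 2.54% of all genes. It measured 9.87, 9.79, 9.70 and 9.87 in CD15 positive cells, against 9.64, 9.70, 9.38, 9.52 and 9.56 in CD15 negative cells, where the second value of that group fell just short of the lowest CD15 positive one. Mrpl23 differed by 0.25 (adjusted p = 0.458), Mrpl42 by 0.33 (0.504) and Mrps11 by 0.28 (0.506).

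Whether the fractions differed by unequal amounts in the models was tested as an interaction. In limma 0 members were called, and 0% of all genes were called in either direction. At an unadjusted p under 0.05 there was 1 member, against 2.26% of all genes. The difference was the smaller in Math1-GFP tumours for 68 of 76 genes, and the median of the interaction was -0.15, against 0.02 over all genes. It was -0.09 without Math1-GFP CD15 positive replicate 1 or with only the unnumbered conventional arrays and number 6. Mrpl49, a mitochondria-specific large subunit protein, had the smallest p. Its fraction difference was -0.21 in Math1-GFP tumours, against 0.38 in conventional tumours. The interaction was -0.60 ± 0.22 (SE; adjusted p = 1.00, limma). The next 4 by p were Mrpl3 with -0.29, Mrps2 with -0.26, Mrpl16 with -0.31 and Mrps7 with -0.23.

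**Figure D3:**
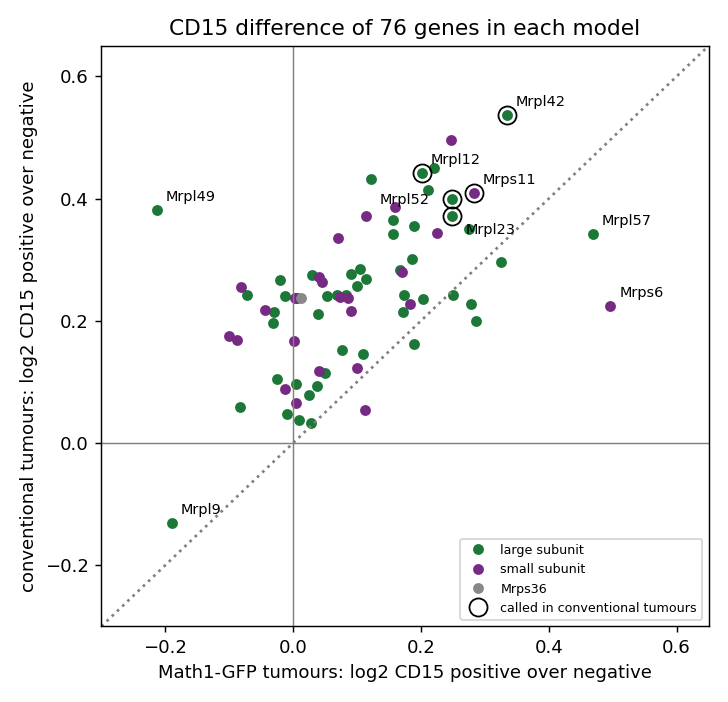
Difference between CD15 positive and CD15 negative cells of each of the 76 genes, as log2 fold change, in Math1-GFP tumours (horizontal) and conventional tumours (vertical). Green points are large subunit genes, purple ones small subunit genes and the grey one Mrps36; rings mark the 5 genes called in conventional tumours, and the dotted line marks equal differences. Of the 76 points 68 lie above that line, and 1, Mrpl9, lies below 0 in conventional tumours.

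Averaged over the models, CD15 positive cells had 9 of 76 genes called higher and 0 lower, against 3.77% of all genes higher and 5.97% lower. In the order of p these were Mrpl23 with 0.31, Mrpl42 with 0.44, Mrps11 with 0.35, Mrpl12 with 0.32, Mrpl57 with 0.41, Mrpl2 with 0.31, Mrpl52 with 0.32, Mrpl35 with 0.31 and Mrps28 with 0.28. The adjusted p lay between 0.00523 for Mrpl23 and 0.0455 for Mrps28. The estimate was above 0 for 74 of 76 genes, with a median of 0.16. In the brightest of the 4 bins 8.80% of all genes were called higher, and 8 of the 51 members there. Without Math1-GFP CD15 negative replicate 10 the count was 5, with Mrpl2, Mrpl35, Mrpl52 and Mrps28 lost, and with probe sets averaged per gene it was 5. With 1 array left out at a time, Mrpl35 and Mrps28 were not called in 14 of 21 fits, Mrpl52 in 10 and Mrpl2 in 5. Mrpl57, Mrpl52 and Mrpl35 each have a dimmer probe set with an estimate of opposite sign.

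The largest differences lay between the tumour models. Averaged over fractions, 66 of the 76 genes were called lower in Math1-GFP than in conventional cells and 0 higher, against 20.5% of all genes lower and 18.7% higher. The median was -0.58, a level 0.668 times that of conventional cells, while the median of all genes was -0.01. In the large subunit 41 of 49 genes were lower, with a median of -0.63, and in the small subunit 24 of 26, with a median of -0.50. Of the genes with a bacterial counterpart 40 of 43 were lower, and of the mitochondria-specific ones 25 of 32. Mrps36 was lower as well, by 0.59 on the log2 scale (adjusted p = 0.000686). The arrays of each model carry their own ending in the titles, so tumour model and the set of arrays cannot be told apart. This fit counts each array as a separate sample. Same-numbered conventional arrays deviated from their group means together, so the SE and p-values between models can be too small. The comparisons within a single fraction, given below, do not average such pairs.

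Mrpl41, a mitochondria-specific large subunit protein also studied for a role in cell cycle arrest in human cells, had the largest difference. It measured 8.04, 8.42, 8.02 and 8.35 in Math1-GFP CD15 positive cells and 8.14, 8.36, 8.11, 8.16 and 8.34 in Math1-GFP CD15 negative cells. In conventional tumours it measured 9.12, 10.39 and 10.89 (lowest, median and highest) in CD15 positive cells and 9.07, 10.19 and 10.29 in CD15 negative cells. The models did not overlap. The difference was -1.79 ± 0.20 (SE; adjusted p = 1.16e-06, limma). The second probe set of Mrpl41 past the filter gave -1.10. The conventional arrays differed among themselves: against those numbered 2 to 5 the difference was -2.17, and against the unnumbered ones and number 6 it was -1.02.

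Mrpl48 measured 8.36, 8.40, 8.49 and 8.41 in Math1-GFP CD15 positive cells and 8.10, 8.40, 8.15, 8.10 and 8.39 in Math1-GFP CD15 negative cells. In conventional tumours its lowest, median and highest levels over both fractions were 8.96, 9.50 and 9.72. Each Math1-GFP array of this mitochondria-specific gene lay below each conventional array, and the difference was -1.10 ± 0.09 (SE; adjusted p = 5.17e-08, limma). One of its 3 probe sets, with a mean signal of 34.6, gave 0.20 in place of it.

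Mrpl52 measured 9.76, 10.06 and 10.13 over the Math1-GFP arrays, against 10.65, 11.00 and 11.73 over the conventional arrays. The models did not overlap, and the difference was -1.09 ± 0.09 (SE; adjusted p = 5.90e-08, limma). Mrpl39, which resembles a threonyl-tRNA synthetase in part of its sequence, measured 9.48, 10.03 and 10.42 over the Math1-GFP arrays, against 10.72, 11.09 and 11.31 over the conventional arrays. Its difference was -1.04 ± 0.11 (SE; adjusted p = 7.77e-07, limma). These 4 genes were the ones at least 2-fold lower.

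In 26 genes, these 4 included, no Math1-GFP array reached a conventional array, against 3.57% of all genes. The bacterial-type large subunit genes among them included Mrpl34 with -0.93, Mrpl12 with -0.79, Mrpl27 with -0.74 and Mrpl15 with -0.73. Small subunit genes among them included Mrps24 with -0.93 and Mrps16 with -0.92. Mrpl58, once named Ict1, releases stalled peptides from the ribosome and had -0.69. Of the genes whose promoters are printed above, Mrpl17 had -0.81, Mrpl22 -0.71 and Mrpl32 -0.46, and all of them were called.

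The 10 genes not called were Mrpl1, Mrpl9, Mrpl19, Mrpl37, Mrpl50, Mrpl55, Mrps18a and Mrps30 of the large subunit and Mrps33 and Mrps35 of the small subunit. For some of them the conventional arrays differed among themselves. Mrps35 measured 9.59 to 10.07 in the unnumbered arrays and number 6, 8.65 to 9.19 in numbers 2 to 5 and 8.77 to 9.31 in Math1-GFP arrays. Mrps33 measured 11.00 to 11.38, 10.33 to 10.71 and 10.48 to 10.70 in the same order. For Mrpl19 these ranges were 9.26 to 9.53, 8.22 to 8.81 and 7.98 to 9.02. Mrps18a missed the threshold narrowly, with -0.26 (adjusted p = 0.0509). Estimates above 0 belonged to Mrpl1 with 0.05 and Mrpl50 with 0.14. Mrpl50 measured 8.62, 8.71 and 8.91 over the Math1-GFP arrays, against 7.87, 8.62 and 9.07 over the conventional arrays, which enclose them.

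**Figure D4:**
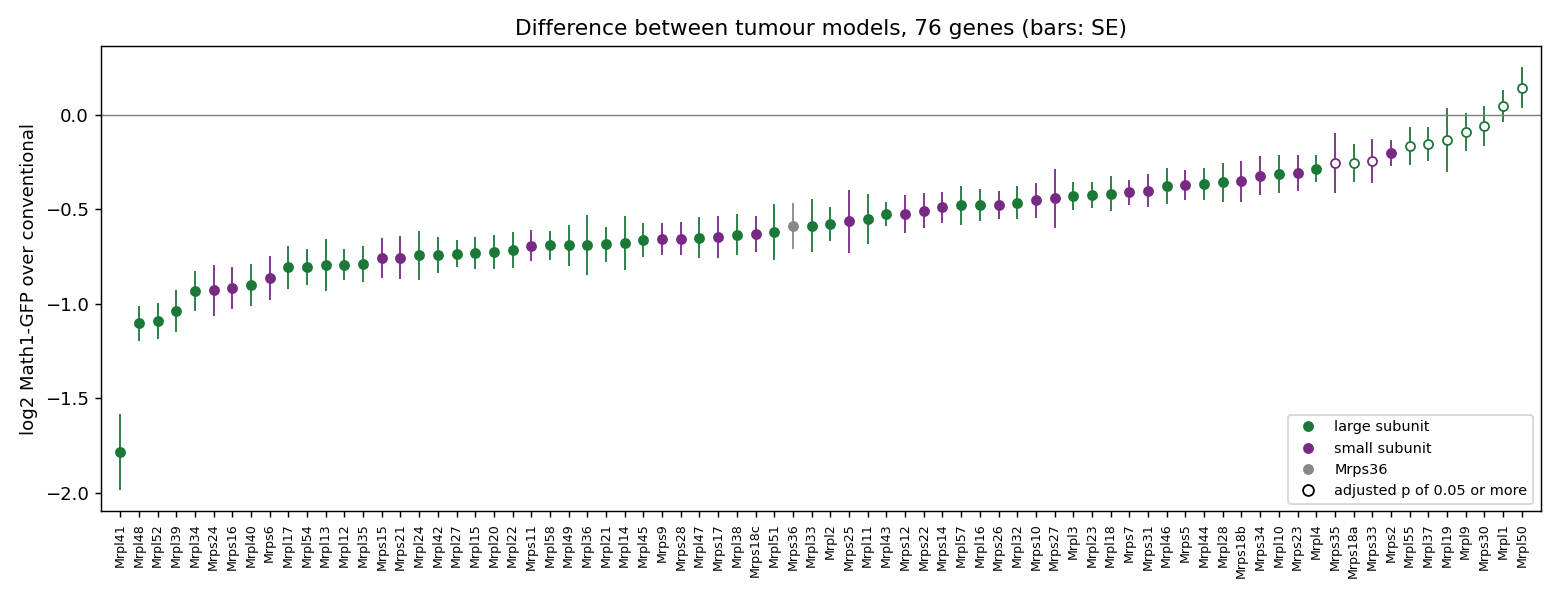
Difference between Math1-GFP and conventional cells, averaged over CD15 fractions, as log2 fold change with SE, for the 76 genes in order of size. Filled points are called (66 genes, all lower) and open points are not (10 genes); colour gives the subunit. The values run from -1.79 for Mrpl41 to 0.14 for Mrpl50.

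Within CD15 positive cells alone 62 genes were called lower in Math1-GFP cells, with a median of -0.64, against 12.2% of all genes lower and 10.9% higher. Within CD15 negative cells 49 were called lower, with a median of -0.52, against 10.5% of all genes lower and 7.91% higher. Brightness moved with this comparison. In the brightest of the 4 bins 36.1% of all genes were called lower in Math1-GFP cells, and their median was -0.11. Of the 51 members in that bin 47 were lower, with a median of -0.63. In the next bin 18 of 23 members were lower, against 19.3% of all genes. With each array centred on the brightest bin, 62 members were called lower and their median was -0.51, against 15.5% of all genes lower and 24.7% higher. With quantile normalization 68 were lower, against 24.7% of all genes lower and 14.5% higher. When every probe set was tested on its own, 93 of 143 were lower and 10 higher, against 15.8% and 26.8% of all probe sets. The 10 higher ones belong to Mrpl3, Mrpl9, Mrpl13, Mrpl17, Mrpl19, Mrpl51, Mrps2, Mrps14 and Mrps31. None of the 10 was the brightest of its gene, and 7 had mean signals under 40. Both dimmer probe sets of Mrpl9 were higher in Math1-GFP cells, by 0.35 and 0.56, while the one used gave -0.09. In all, 19 of the 66 called genes had a probe set whose estimate has the other sign.

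**Figure D5:**
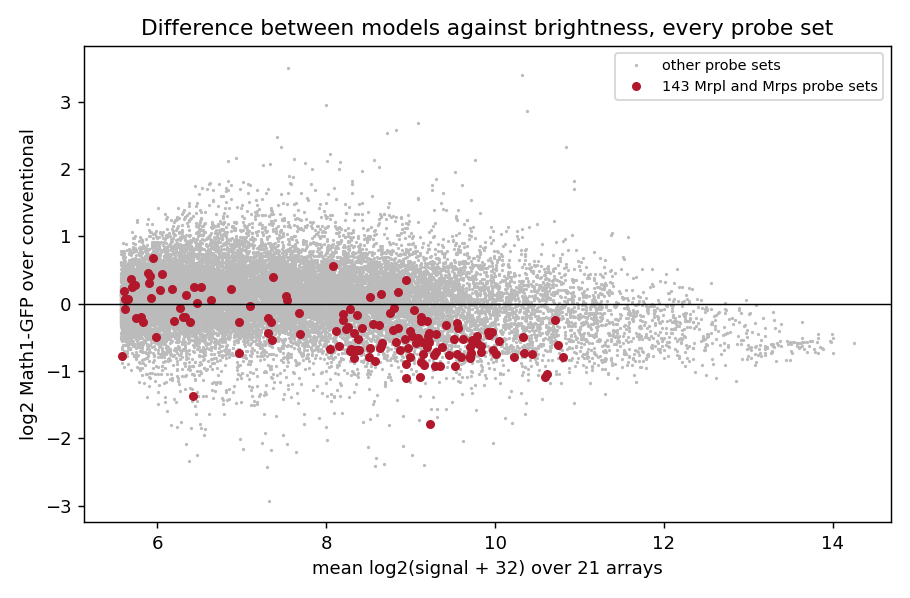
Difference between Math1-GFP and conventional cells as log2 fold change (vertical) against mean log2(signal + 32) over the 21 arrays (horizontal), for every probe set tested. Red points are the 143 probe sets of mitochondrial ribosomal protein genes, grey ones all others. Most red points at high brightness lie below 0, while dim ones lie on both sides. In the brightest of the 4 bins of genes, 36.1% of all genes were called lower and 18.6% higher, with a median of -0.11.

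Cell markers were compared between the models too, where 20.5% of all genes were called lower and 18.7% higher. All 10 measured genes of microglia and macrophages were called lower in Math1-GFP cells, with a median of -1.25. Their mean level ranged from 5.92 to 7.23 in Math1-GFP CD15 positive and from 5.66 to 6.24 in Math1-GFP CD15 negative cells, against 6.41 to 9.78 in conventional CD15 positive and 5.77 to 8.26 in conventional CD15 negative cells. C1qa, Csf1r and Tyrobp, which define these cells, had differences of -1.95, -1.79 and -1.92. Of 7 mural cell and fibroblast genes 3 were called lower, with a median of -0.74 and a range of -1.25 to -0.61. Of 7 astrocyte genes and of 6 oligodendrocyte lineage genes 2 were called higher and 1 lower in each list, and of 4 neutrophil and 3 endothelial genes 0 were called. Of 19 genes of the G2 and M phases 6 were called higher and 3 lower, and of 14 neuronal differentiation genes 3 were called higher and 2 lower. The part of these cells in the difference of the ribosomal protein genes was not tested.

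Other genes of mitochondrial translation were divided between the models, where 20.5% of all genes were called lower and 18.7% higher. Of 5 proteins of or bound to the ribosome without an Mrp name 4 were called lower in Math1-GFP cells. These were Chchd1 with -0.84, Gadd45gip1 with -0.56, Dap3 with -0.51 and Oxa1l, an inner membrane insertase, with -0.22. Of 12 translation factors 6 were lower and 1 higher: Slirp had -0.98, the ribosome recycling factor Mrrf -0.86, the elongation factor Tufm -0.60 and the initiation factor Mtif3 -0.58, and Guf1, a GTPase related to bacterial LepA, had 0.75. Of 23 assembly and rRNA modification genes 7 were lower and 0 higher, with a median of -0.21. The lowest of the called ones was Fastkd2, needed for the large subunit rRNA, with -0.53. Of 21 synthetase genes 4 were lower, with a list median of -0.04. Of 11 genes of mitochondrial DNA replication and transcription 3 were lower and 1 higher. Of 8 regulators 4 were higher in Math1-GFP cells, Mycn with 0.74, Gabpa with 0.68, Nrf1 with 0.42 and Gabpb1 with 0.41, and 1 was lower, Esrra with -0.33. Nrf1 encodes the factor of the GCATGCGC motif and Gabpa and Gabpb1 the subunits of GABP, whose letters are marked in the promoters above.

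Within groups the members varied together only in part. After each group mean was removed, the median correlation between pairs of members over the 21 arrays was 0.15, and 65.9% of pairs were above 0. The mean was 0.14 among members, against 0.01 over all tested genes. These values share the arrays and their scaling. Mrpl34, Mrpl42 and Mrpl58 followed the mean of the other members most closely, at 0.88, 0.87 and 0.83, and Mrpl57 had the lowest value, at -0.34.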

How the data were processed

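RNA of sorted mouse tumour cells had been hybridised to Affymetrix arrays with 45101 probe sets. The deposited table holds linear intensities, 1 per probe set, from 0.025 to 55079.4. The authors' steps before deposit are not given in the sources used here. The mean left after trimming 2% at each end is 150 on every array.

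Values were used as deposited, as log2(signal + 32), which makes fold changes of dim genes smaller. The 64 control probe sets and those below the 40th percentile of mean log2 value (a signal of about 15.5) were left out. Names came from the array annotation, and all 76 member symbols matched GRCm38.p6 unchanged. The 4 probe sets that name a member beside another gene were left out. Of 23211 probe sets, the brightest per gene was kept. A model of 4 group means over 21 arrays (17 residual degrees of freedom) was fitted with limma 3.58.1 in R 4.3.3, with 5 contrasts, two-sided p-values and Benjamini-Hochberg adjustment over 12367 genes. The script was tested on simulated data. The number of arrays limits the precision.

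Members, lists and alternatives were chosen with earlier results of these data known. Named were members called in a contrast (between models by count and example, for length), the 10 of smallest p between conventional fractions and 5 elsewhere, and called or leading genes of 6 context lists; of 9 marker lists the levels or counts are given. Genes of nonoverlapping groups, promoters and opposed probe sets beyond that were named after their values were seen. Mrpl58 stood on a list as Ict1 and was counted as a member only. Same-numbered conventional arrays, the unnumbered ones taken as replicate 1, deviated from their group means together (correlation 0.583 to 0.757 in 6 pairs, at most 0.477 in others). The numbers were therefore read as pairs, but only in the pair counts and the blocked fits. The main fit, behind the SE and calls given, has no block.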

Additional observations from a re-analysis of the deposited data

Results flagged for a closer look

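Single arrays stood far from the others of their group in 4 of 100 groups of values examined, over 24 genes and the mean of all members. About 1 in 20 would be so by chance. Mrps6 was at 7.78 in Math1-GFP CD15 negative array 2, where the other arrays of that group lay between 8.43 and 8.66. In the same array Mrpl34 was at 8.48, below the others at 8.89 to 9.01. Math1-GFP arrays 1 and 2 were also the lowest of their groups in the mean over the 76 genes, at 8.78 and 8.70. Without both, 62 genes were called lower between models, with a median of -0.50, against 18.9% of all genes lower and 18.6% higher. The median between Math1-GFP fractions was then 0.11 and that of the interaction -0.12. Mrpl27 was at 11.15 in conventional CD15 positive array 4, above the others at 10.67 to 10.81. Mrpl58 was at 9.88 in conventional CD15 negative array 5, below the others at 10.14 to 10.23.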

How the results depend on the processing

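The alternatives covered 39 named differences of 24 members, each contrast's count and its median; other named genes were not rerun. Direction held for these differences and medians in each alternative, with 1311 named values on the same side of the threshold, 103 no longer past it and 19 newly past it. Several alternatives could not change an estimate, so direction was bound to hold there. These were the filters, the test of every probe set, the 2 groups alone and the eBayes options. For a contrast within a model, leaving out an array of the other model could not change it either. Between conventional fractions the count of 5 was 9 with the higher pseudocount, 12 with the replicate block, 41 (12.3% of all genes higher) when consecutive Math1-GFP numbers, which the labels do not pair, were blocked as well, and 0 (0% of all genes) in the unnumbered arrays and number 6 alone, where only 4 conventional arrays remain. With 1 array left out in turn the count ran from 3 to 8 and the median from 0.21 to 0.27. Mrpl52 lost its call in 26 alternatives, Mrps11 in 6. In Math1-GFP tumours the count was 0 with each array left out and 2 (Mrpl42 and Mrpl57; 3.20% of all genes higher) under the consecutive block. Averaged over models the count of 9 was 5 with the mean of probe sets, 36 under the consecutive block (35 higher and Mrpl9 lower; 15.0% of all genes higher and 16.5% lower) and 0 in the unnumbered arrays and number 6 (0.606% higher); leaving out single arrays gave 5 to 9. Between models the count lay between 49 and 68 (Mrpl50 called higher with conventional numbers 2 to 5 only), and between 63 and 67 with single arrays left out. That median was -0.48 with the higher pseudocount and -0.44 with the mean of probe sets. The interaction count was 0 in each setting. Averaged over models the replicate block kept the 9 calls and added Mrpl55, Mrps6, Mrps14 and Mrps35. That block pairs the conventional arrays and leaves the Math1-GFP arrays unpaired. It could not be fitted between models, since each block lies in 1 model. The alternatives within fractions and centred on the brightest bin were added after seeing the data. The cause of these changes was not tested, and some alternatives also hold fewer arrays. Signals near background limit the dim probe sets.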
